A study of Caenorhabditis elegans with 6 samples.

Results

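The genes described here are the *Caenorhabditis elegans* ligand-gated ion channel subunits whose symbol is *acr*, *lgc*, *glr* or *nmr* followed by a number. The rule used names only, no measured value, and found 87 of the 46904 genes in the count tables: 21 *acr*, 56 *lgc*, 8 *glr* and 2 *nmr* genes, all of them protein-coding. RNA was sequenced from whole, untreated larvae of the first larval stage (L1) that had been fed *E. coli* on agar plates. The groups were *csb-1* mutants (strain RB1801, allele *ok2335*), *xpc-1* mutants (strain TG2226, allele *tm3886*) and wild-type worms (strain N2), with 2 libraries each. The *csb-1* and *xpc-1* genes encode damage sensors of transcription-coupled and global-genome nucleotide excision repair, and no group had been irradiated. The sources used here do not say whether the 2 libraries of a strain came from separate cultures, so the p-values measure only the spread between these libraries.

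Ligand-gated ion channels open when a transmitter binds and carry fast synaptic signals in neurons and muscle. The *acr* genes encode nicotinic acetylcholine receptor subunits, which belong with most *lgc* products to the Cys-loop family, in which subunits form a ring around a pore that passes cations or chloride. The *lgc* genes cover many ligands, among them acetylcholine, GABA and monoamines, and for many of them no ligand is stated here. The *glr* genes encode ionotropic glutamate receptors of the non-NMDA kind (AMPA type and others) and the *nmr* genes encode NMDA-type receptors. *C. elegans* larvae hatch with most of their neurons already formed. In a whole animal, fewer cells of a type and less RNA per cell cannot be told apart.

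The libraries held 41643033 to 48371365 reads assigned to genes. A count of 0 allows a level of up to 0.0578 to 0.0861 CPM (reads of a gene scaled to a common library total), taking 3 reads as the limit and covering counting error only. Each mate of a pair was counted, so reads are not independent and the limit would be higher if set in fragments. CPM were scaled by the TMM method, which corrects for differences in RNA composition, and its factor was 0.720 in *csb-1* replicate 2 against up to 1.08 in the other libraries. The *csb-1* libraries were unlike each other. Their counts had a Spearman correlation of 0.747 across genes, against 0.991 between the *xpc-1* and 0.990 between the wild-type libraries, so the levels of named genes in *csb-1* are given per library below. The mutated genes were covered in all libraries: *xpc-1* had 18 and 17.9 CPM in *xpc-1* mutants, against 43.5 and 40.1 CPM in wild-type, and *csb-1* had 17.5 and 8.04 CPM in *csb-1* mutants, against 20.5 and 22.9 CPM in wild-type. Counts over a whole gene do not check an allele that alters a piece of it.

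Positions are on genome build WBcel235. Of the 87 genes, 27 lay on chromosome X, or 31.03%, where 13.6% of all protein-coding genes lie. Chromosome V held 18, IV held 14, II held 13, III held 10 and I held 5. Several sat beside each other: *acr-2* (X:6702463-6709142) and *acr-3* (X:6709538-6712925) were 395 bases apart, and *acr-15* and *acr-16* were 5827 bases apart on chromosome V. The reads were counted without regard to strand, so reads from a gene and an overlapping antisense gene cannot be told apart. Exons of 49 of the 87 genes shared no base with another gene, and 10 shared more than 5% of their exon bases, led by *glr-2* with 22.2% and *acr-2* with 12.5%.

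Most of these genes were detected in L1 larvae. Levels between genes are given per length, as TPM, in which reads are divided by exon length before scaling to a common total. At least 1 TPM in both libraries of a strain was reached by 56 of the 87 genes in *csb-1* larvae, 68 in *xpc-1* larvae and 69 in wild-type larvae. A single *csb-1* library alone gave 65 genes (replicate 1) or 63 (replicate 2). In wild-type the 69 were 20 of 21 *acr*, 39 of 56 *lgc*, 8 of 8 *glr* and 2 of 2 *nmr* genes. In both *csb-1* libraries they were 17 *acr*, 32 *lgc*, 5 *glr* and 2 *nmr* genes, and in *xpc-1* larvae 20 *acr*, 39 *lgc*, 7 *glr* and 2 *nmr* genes. The gene that passed the minimum in wild-type and missed it in *xpc-1* larvae was *glr-3*. The median of the mean levels in wild-type was 4.84 TPM over all 87 genes, those without reads included. It was 10.1 TPM over the 18762 protein-coding genes detected there, a set that leaves out genes without reads.

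Among the nicotinic subunits, *acr-8* (X:10412725-10416630) had the highest level in wild-type larvae, at 26.8 ± 0.499 TPM (SD, n = 2). Its product is related to subunits of the levamisole receptor of muscle. It was followed by *acr-16* with 11.6 ± 1.79 TPM and *acr-12* with 11.6 ± 0.239 TPM. *acr-16* encodes the subunit of the nicotine-sensitive receptor of body wall muscle, and *acr-12* a subunit of receptors in motor neurons. These 2 genes did not differ beyond their spread, and neither did *acr-25* with 10.6 ± 0.806 TPM from *acr-16*. Lower levels were found for *acr-23*, which encodes a receptor for betaine, with 8.54 ± 0.828 TPM, and for *acr-24* with 7.62 ± 1.21, *acr-19* with 6.48 ± 0.281, *acr-15* with 6.28 ± 0.986, *acr-2* with 5.84 ± 0.938 and *acr-11* with 5.47 ± 0.181 TPM. The one *acr* gene below 1 TPM in a wild-type library was *acr-6*, with 1.78 and 0.764 TPM.

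The highest levels of all 87 genes in wild-type belonged to 4 *lgc* genes. *lgc-21* (X:14064313-14067984) had 88.2 and 99.2 TPM, *lgc-27* (II:4649085-4653280) had 80.9 and 89 TPM, and *lgc-34* (II:526574-530374) had 76.2 and 81.7 TPM. The ranges of *lgc-21* and *lgc-27* overlapped, as did those of *lgc-27* and *lgc-34*. *lgc-22* (IV:4301308-4304437) was below all 3, with 60.5 and 63.1 TPM. Of the exon bases of *lgc-27*, 7.56% were shared with other genes, and the other 3 shared none. A wide gap separated them from *lgc-39*, a receptor for several transmitters, with 22.1 ± 3.66 TPM, and *lgc-47*, an acetylcholine-gated chloride channel, with 20.9 ± 2.31 TPM, which did not differ beyond their spread. They were followed by *lgc-55*, a tyramine-gated chloride channel, with 16.8 ± 0.823 TPM, by *lgc-40*, whose product responds to serotonin, with 15.6 ± 3.27 TPM, and by *lgc-33* with 15.2 ± 1.02 and *lgc-20* with 14.2 ± 2.17 TPM.

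Every glutamate receptor gene reached 1 TPM in both wild-type libraries. *glr-4* had 13.8 ± 0.502 TPM and *glr-6* 12.9 ± 0.336 TPM, followed by *glr-5* with 10.9 ± 0.30 TPM and *glr-1* with 10.2 ± 0.371 TPM. *glr-1* encodes the AMPA-type subunit of the command interneurons, and its partner *glr-2*, the gene that shared most of its exon bases with others, had 4.42 ± 0.629 TPM. Lower levels were found for *glr-8* with 3.61 ± 0.796, *nmr-2* with 3.34 ± 0.401 and *nmr-1* with 2.94 ± 0.664 TPM, which overlapped. *glr-7* had 2.24 ± 0.282 TPM. *glr-3*, which encodes a cold receptor of sensory neurons, had the lowest level of the *glr* genes, at 1.35 ± 0.274 TPM.

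In wild-type, 18 of the 87 genes were below 1 TPM in a library, and 17 of them were *lgc* genes. *lgc-15*, *lgc-16* and *lgc-17* had no read in either *xpc-1* or either wild-type library. None of the 87 genes was without reads in all 6 libraries. *lgc-15*, *lgc-16*, *lgc-17* and *lgc-18* lie in one cluster with *lgc-13* and *lgc-14* on chromosome X, and *lgc-18* (X:12125608-12128000) had 0.133 and 0.193 TPM in wild-type.

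**Figure D1:**
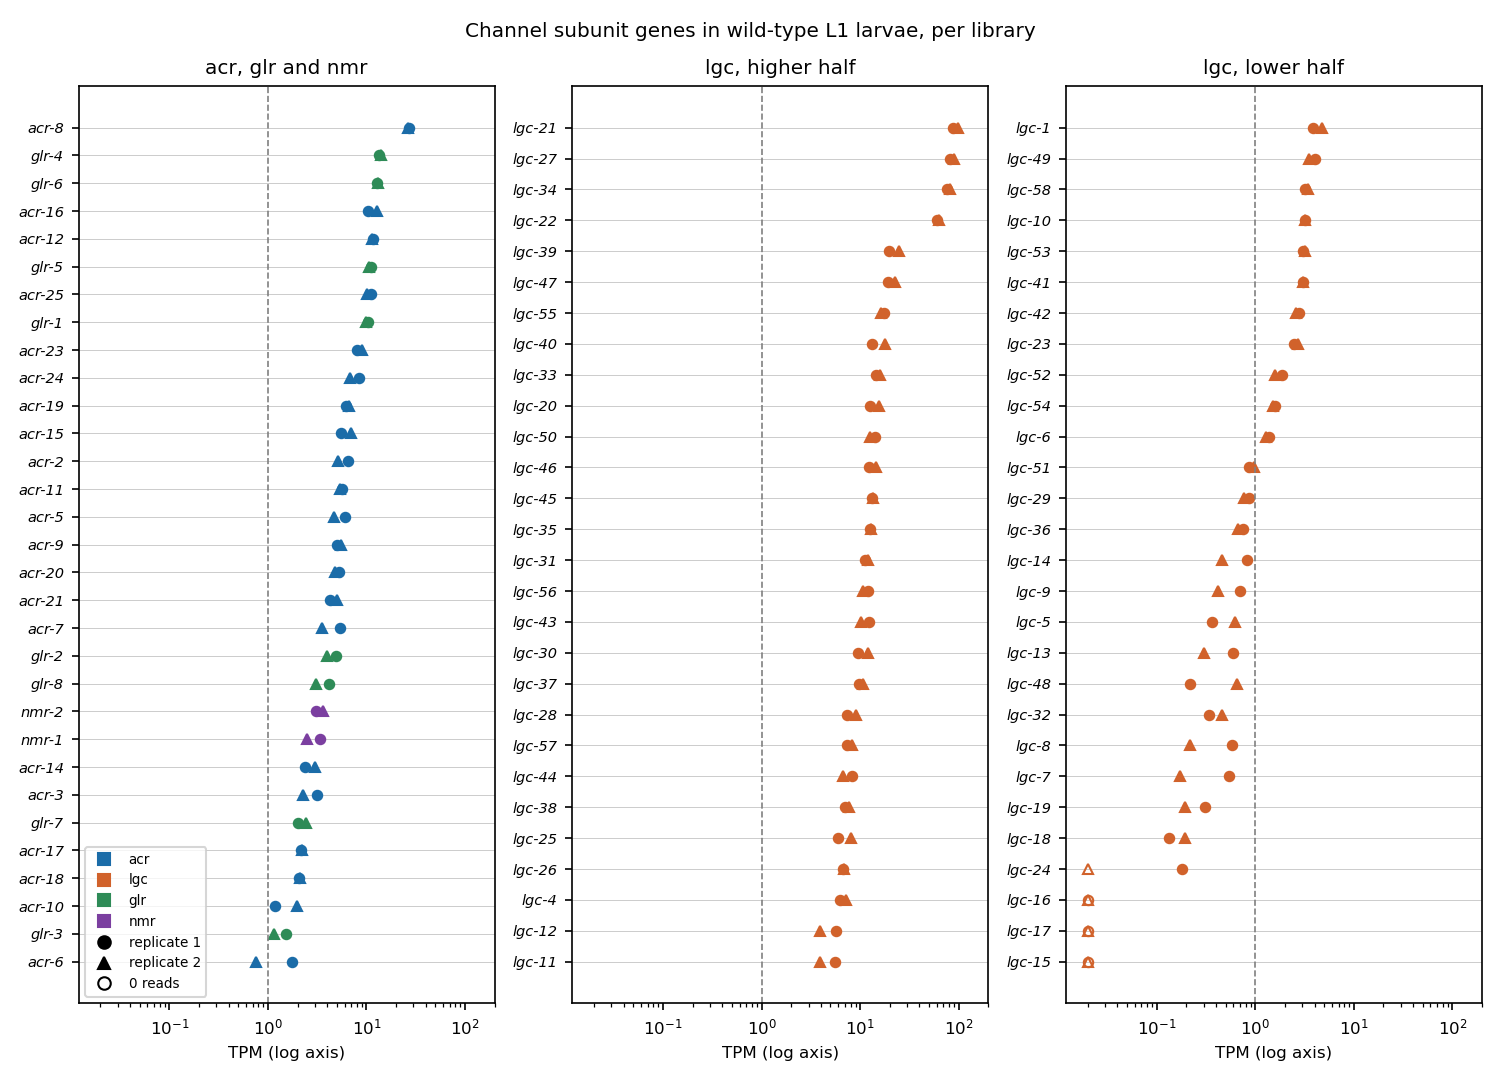
Level of each of the 87 genes in the wild-type libraries (TPM, log axis; circles, replicate 1; triangles, replicate 2; open symbols drawn at the left edge, 0 reads; dashed line, 1 TPM), sorted by mean, with *acr*, *glr* and *nmr* genes on the left and *lgc* genes in the other panels. *lgc-21*, *lgc-27*, *lgc-34* and *lgc-22* stand at 60.5 to 99.2 TPM, above all others, and the lowest *lgc* genes have no reads.

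Summed over a class in CPM, subunit RNA was lower in both *xpc-1* libraries than in both wild-type libraries in every class, and unequal between the *csb-1* libraries. The 21 *acr* genes summed to 101.8 and 169.8 CPM in the *csb-1* libraries and to 130.2 and 125.8 CPM in the *xpc-1* libraries, against 179.7 and 176.8 CPM in the wild-type libraries. The 8 *glr* genes summed to 100.3 and 148.8 CPM in *csb-1*, to 104.01 and 98.6 CPM in *xpc-1* and to 128.7 and 126.7 CPM in wild-type. The 2 *nmr* genes summed to 5.16 and 13.98 CPM in *csb-1*, to 6.94 and 8.19 CPM in *xpc-1* and to 14.6 and 13.7 CPM in wild-type. In these 3 classes both *xpc-1* libraries were below both wild-type libraries, and the *csb-1* libraries lay on either side of the *xpc-1* libraries for *acr* and *nmr*. In summed TPM the order of the *csb-1* libraries turned for *acr*, with 94.4 and 72.7 TPM in *csb-1*, 109.7 and 103.6 TPM in *xpc-1* and 139.6 and 136.8 TPM in wild-type, and for *glr*, with 56.1 and 37.2 TPM in *csb-1*, 52.7 and 49.3 TPM in *xpc-1* and 60.4 and 58.6 TPM in wild-type. The *xpc-1* libraries were below both wild-type libraries for *acr*, *glr* and *nmr* on either scale.

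The *lgc* genes summed to 675.7 and 552.9 CPM in *csb-1*, to 618.3 and 668.9 CPM in *xpc-1* and to 710.0 and 767.1 CPM in wild-type. In TPM the *csb-1* libraries summed to 705.1 and 237.1 and the *xpc-1* libraries to 580.9 and 619.9, against 607.5 and 653.7 in wild-type, so that the *xpc-1* and wild-type ranges overlapped and *csb-1* replicate 1 was above wild-type. The CPM sum joined 2 sets of genes, which were separated after the values were seen. The 9 genes *lgc-20* to *lgc-28* summed to 410.0 and 31 CPM in *csb-1* and to 308.4 and 349.3 CPM in *xpc-1*, against 285.9 and 318.7 CPM in wild-type. The other 47 *lgc* genes summed to 265.7 and 521.9 CPM in *csb-1* and to 309.9 and 319.6 CPM in *xpc-1*, against 424.2 and 448.5 CPM in wild-type. The *xpc-1* and wild-type ranges overlapped for *lgc-20* to *lgc-28* and did not for the others. The 9 genes did not share a direction in *xpc-1*. In the test given below, 8 of them were tested, and 1 was called higher, 1 lower and 6 neither. Over all genes tested, 20% were called higher and 17.1% lower.

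**Figure D2:**
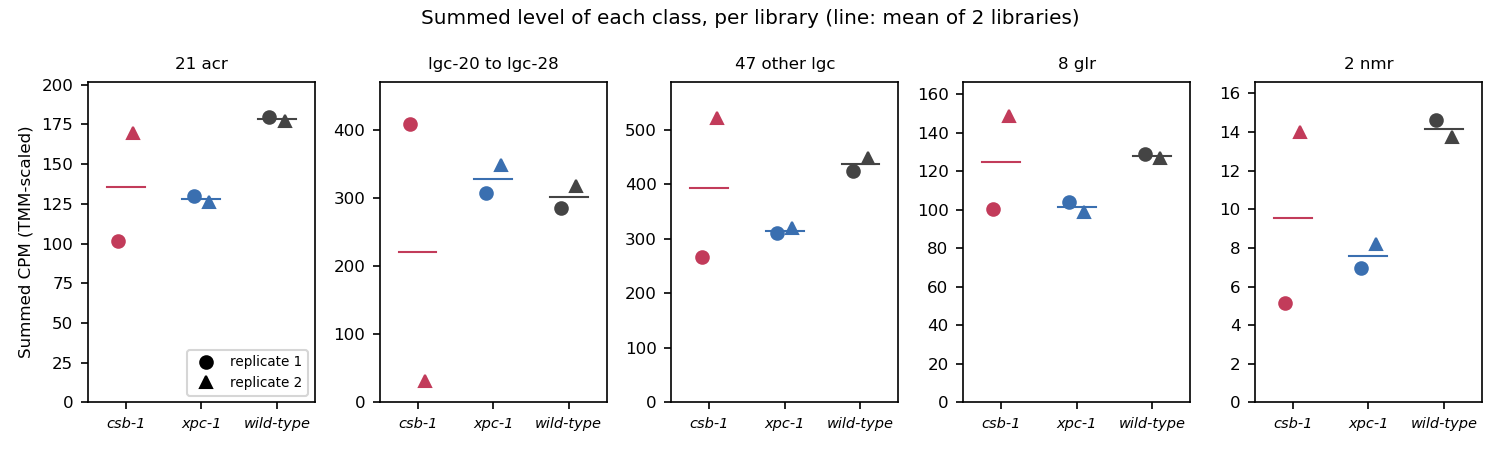
Summed level of each class per library (TMM-scaled CPM, axes from 0; circles, replicate 1; triangles, replicate 2; lines, mean of 2 libraries) for *csb-1*, *xpc-1* and wild-type. Both *xpc-1* libraries are below both wild-type libraries in every panel but that of *lgc-20* to *lgc-28*, where *csb-1* replicate 2 has 31 CPM and replicate 1 has 410.0 CPM.

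The comparison of *xpc-1* with wild-type asks how subunit RNA differs in larvae that lack the global-genome damage sensor. It was made with edgeR's quasi-likelihood test on the 4 libraries, with Benjamini-Hochberg adjustment over the 17924 genes tested and a threshold of 0.05. Of the 80 subunit genes tested, 28 were lower in *xpc-1* larvae (35%), 1 was higher (1.25%) and 51 did not pass the test. Over all genes tested, 17.1% were called lower and 20% higher. The median log2 fold change was -0.43 over the 80 subunit genes and -0.02 over all genes. Both *xpc-1* libraries were below both wild-type libraries for 55 of the 80 genes (68.8%) and above them for 4 (5%), against 36% below and 33.3% above over all genes tested. The 7 genes left out had under 10 reads in all but at most 1 of the 4 libraries.

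These calls depended on which libraries set the estimate of spread. With all 6 libraries in 1 fit, which included the unlike *csb-1* libraries, 0 subunit genes and 0 of 18421 genes passed, with 267 genes at an unadjusted p under 0.05. With the 4 libraries, DESeq2 called 29 subunit genes, 28 of them lower. Leaving out *xpc-1* replicate 1 or wild-type replicate 2 left 16 genes lower, and 12 of the 29 calls passed whichever of the 4 libraries was left out.

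*lgc-22* was the one gene that rose. It had 97.0 and 111 CPM in *xpc-1* larvae, against 63.7 and 66.7 CPM in wild-type, a log2 fold change of 0.69 (SE 0.10, adjusted p = 0.000796, edgeR). It was also called with each library left out. *lgc-27* had 105.5 and 111.4 CPM in *xpc-1* and 87.4 and 96.6 CPM in wild-type, without passing the test (adjusted p = 0.0555). *lgc-21*, the gene with the highest level in wild-type, fell to 63.1 and 77.9 CPM in *xpc-1* larvae, against 96.2 and 108.8 CPM in wild-type (log2 fold change -0.52, adjusted p = 0.00802). Its call was lost without *xpc-1* replicate 1 (adjusted p = 0.0662) and without wild-type replicate 2 (0.0600). *lgc-34* had 66.9 and 70.3 CPM in *xpc-1* and 78.0 and 84.1 CPM in wild-type and did not pass (adjusted p = 0.0839). Of the 4 *lgc* genes with the highest levels in wild-type, 1 thus rose, 1 fell and 2 did not pass.

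The nicotinic subunits that changed were lower in *xpc-1* larvae: 6 of the 21 *acr* genes fell and none rose. By relatedness, 2 of 10 fell in the *acr-16* group, 2 of 6 in the *deg-3* group and 1 of 2 in the *acr-8* group. In the *unc-29* group 1 of 2 fell, and in the *unc-38* group 0 of 1. Over all genes tested, 17.1% were called lower, close to the 20% of the *acr-16* group. In the *acr-16* group, *acr-21* (III:6581927-6586549) had 2.69 and 2.92 CPM in *xpc-1*, against 5.94 and 6.95 CPM in wild-type (log2 fold change -1.18, SE 0.22, adjusted p = 0.00291). *acr-16* itself had 10.4 and 8.75 CPM in *xpc-1*, against 13.7 and 17.1 CPM in wild-type (log2 fold change -0.66, adjusted p = 0.0134). In the *deg-3* group, the betaine receptor gene *acr-23* (V:3651686-3659499) had 4.41 and 4.81 CPM in *xpc-1*, against 9.73 and 11.2 CPM in wild-type (log2 fold change -1.17, SE 0.18, adjusted p = 0.00118). *acr-5* of the same group fell as well (log2 fold change -0.70). *acr-21* and *acr-23* were called with each library left out. *acr-16* lost its call without *xpc-1* replicate 2 (adjusted p = 0.0788) and without wild-type replicate 2 (0.107), and *acr-5* without any library but wild-type replicate 2.

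Of the receptor subunits of cholinergic motor neurons, *acr-2* had 3.54 and 4.61 CPM in *xpc-1*, against 9.19 and 7.35 CPM in wild-type (log2 fold change -1.0, SE 0.22, adjusted p = 0.00637). It was not called when wild-type replicate 1 was left out, with an adjusted p of 0.0562. *acr-12* had 11.3 and 10.97 CPM in *xpc-1* and 17.1 and 16.7 CPM in wild-type (log2 fold change -0.59, adjusted p = 0.00733). For *acr-3*, the neighbour of *acr-2*, the libraries overlapped, with 2.80 and 3.37 CPM in *xpc-1* and 3.74 and 2.73 CPM in wild-type. *acr-8*, the highest of the class, had 30.2 and 26.3 CPM in *xpc-1* and 34.7 and 34 CPM in wild-type without passing (adjusted p = 0.0963).

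Of the 49 *lgc* genes tested, 18 fell (36.7%, against 17.1% over all genes). The 4 genes like GABA receptors, *lgc-35* to *lgc-38*, were all called lower. *lgc-35* (II:12836548-12840157) encodes a cation channel opened by GABA and had 7.37 and 7.40 CPM in *xpc-1*, against 14.6 and 15.2 CPM in wild-type (log2 fold change -0.99, SE 0.14, adjusted p = 0.000914). *lgc-37* (III:12785154-12793128) had 5.90 and 4.72 CPM in *xpc-1*, against 10.3 and 11.5 CPM in wild-type (log2 fold change -1.02, SE 0.18). *lgc-38* had 6.08 and 5.62 CPM in *xpc-1*, against 8.69 and 9.62 CPM in wild-type (log2 fold change -0.63, SE 0.17). *lgc-35* and *lgc-37* were called with each library left out, and *lgc-38* only without wild-type replicate 1. The last of them, *lgc-36* (V:11256521-11258996), rested on few reads: 0 and 9 in *xpc-1* and 46 and 38 in wild-type. Its log2 fold change was -3.01 (SE 1.05), or -2.02 without *xpc-1* replicate 1 and -8.34 without *xpc-1* replicate 2, where the remaining *xpc-1* library had 0 reads and the fitted value depends on the prior count. Its adjusted p was 0.0493, and the call was lost with scaling by library size only (adjusted p = 0.0527) and without *xpc-1* replicate 1 (adjusted p = 0.0711), and it could not be tested without either wild-type library. Of its exon bases, 10.6% were shared with another gene.

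Among the acetylcholine-gated chloride channels, *lgc-46* and *lgc-49* fell and *lgc-47* did not pass, of 3 tested. *lgc-46* had 12.3 and 12.9 CPM in *xpc-1* and 17 and 19.98 CPM in wild-type (log2 fold change -0.54), and *lgc-49* had 2.23 and 2.38 CPM in *xpc-1* and 4.88 and 4.31 CPM in wild-type (log2 fold change -0.98). Each lost its call without *xpc-1* replicate 1 and without 1 wild-type library, replicate 2 for *lgc-46* and replicate 1 for *lgc-49*, with adjusted p between 0.0514 and 0.0884. Of the 4 amine-gated channels, *lgc-50* fell, which encodes a cation channel opened by serotonin. It had 10.4 and 10.2 CPM in *xpc-1*, against 18.9 and 16.5 CPM in wild-type (log2 fold change -0.76, SE 0.14, adjusted p = 0.00290). The dopamine-gated channel gene *lgc-53*, the tyramine-gated *lgc-55* and *lgc-40* did not pass, and their log2 fold changes were -0.22, -0.34 and -0.46.

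The other genes with the lowest fold changes were *lgc-42*, *lgc-41* and *lgc-30*. *lgc-42* (III:1997841-2002438) had 1.11 and 1.17 CPM in *xpc-1*, against 2.58 and 2.44 CPM in wild-type (log2 fold change -1.12, SE 0.32). *lgc-41* (X:10454309-10460341), whose product responds to betaine, had 1.69 and 1.87 CPM in *xpc-1*, against 3.87 and 3.89 CPM in wild-type (log2 fold change -1.11, SE 0.26). *lgc-30* (IV:924936-939667) had 5.81 and 6.45 CPM in *xpc-1*, against 11.7 and 14.7 CPM in wild-type (log2 fold change -1.09, SE 0.18). *lgc-30* was called with each library left out, *lgc-41* lost its call without either wild-type library (adjusted p = 0.0512 and 0.0532), and *lgc-42* lost its call without any 1 of the 4 (adjusted p between 0.0604 and 0.104).

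Both NMDA-type genes fell in *xpc-1* larvae. *nmr-1* (II:5440243-5446705) had 3.23 and 3.94 CPM in *xpc-1*, against 8.02 and 5.84 CPM in wild-type (log2 fold change -0.93, SE 0.23, adjusted p = 0.0126). *nmr-2* (V:15006412-15011660) had 3.72 and 4.25 CPM in *xpc-1*, against 6.61 and 7.88 CPM in wild-type (log2 fold change -0.84, SE 0.20, adjusted p = 0.0107). Each lost its call without *xpc-1* replicate 1, with adjusted p of 0.0623 and 0.0576, and without 1 wild-type library, replicate 1 for *nmr-1* (0.103) and replicate 2 for *nmr-2* (0.0797). Of the 6 other non-NMDA genes, *glr-4* and *glr-5* fell, with log2 fold changes of -0.50 and -0.66, and both kept their call with each library left out. *glr-5* had 15.4 and 16.5 CPM in *xpc-1*, against 26.0 and 25.1 CPM in wild-type. Of the AMPA-type genes neither passed: *glr-1* had 23.5 and 18.4 CPM in *xpc-1* and 22.6 and 21.6 CPM in wild-type, which overlapped, and *glr-2* had 6.94 and 7.42 CPM in *xpc-1* and 10.3 and 8.47 CPM in wild-type.

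**Figure D3:**
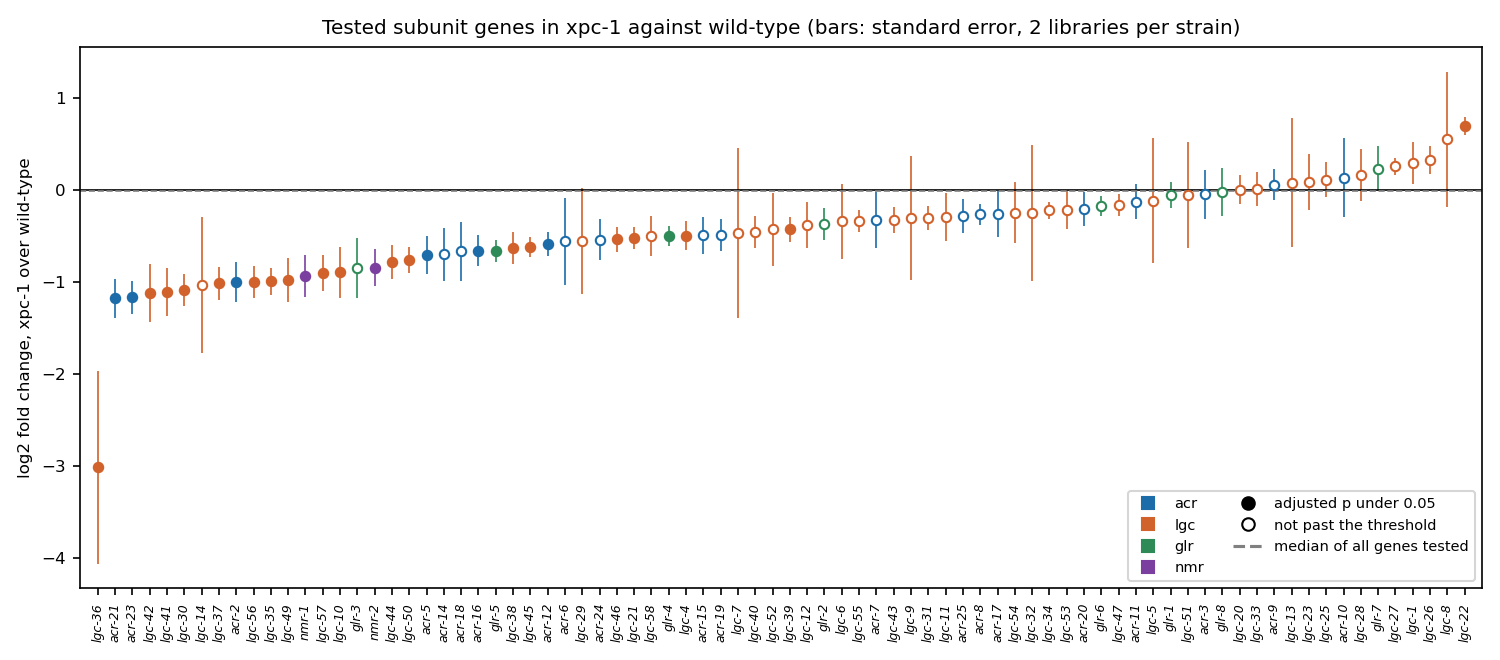
Log2 fold change of *xpc-1* over wild-type for the 80 tested subunit genes, in order (points, edgeR fit on 2 libraries a strain; bars, standard error; filled, adjusted p under 0.05; dashed line, median of all genes tested at -0.02). The 28 genes called lower are filled on the left, led by *lgc-36* with a wide bar, and *lgc-22* is the single filled point above 0.

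**Figure D4:**
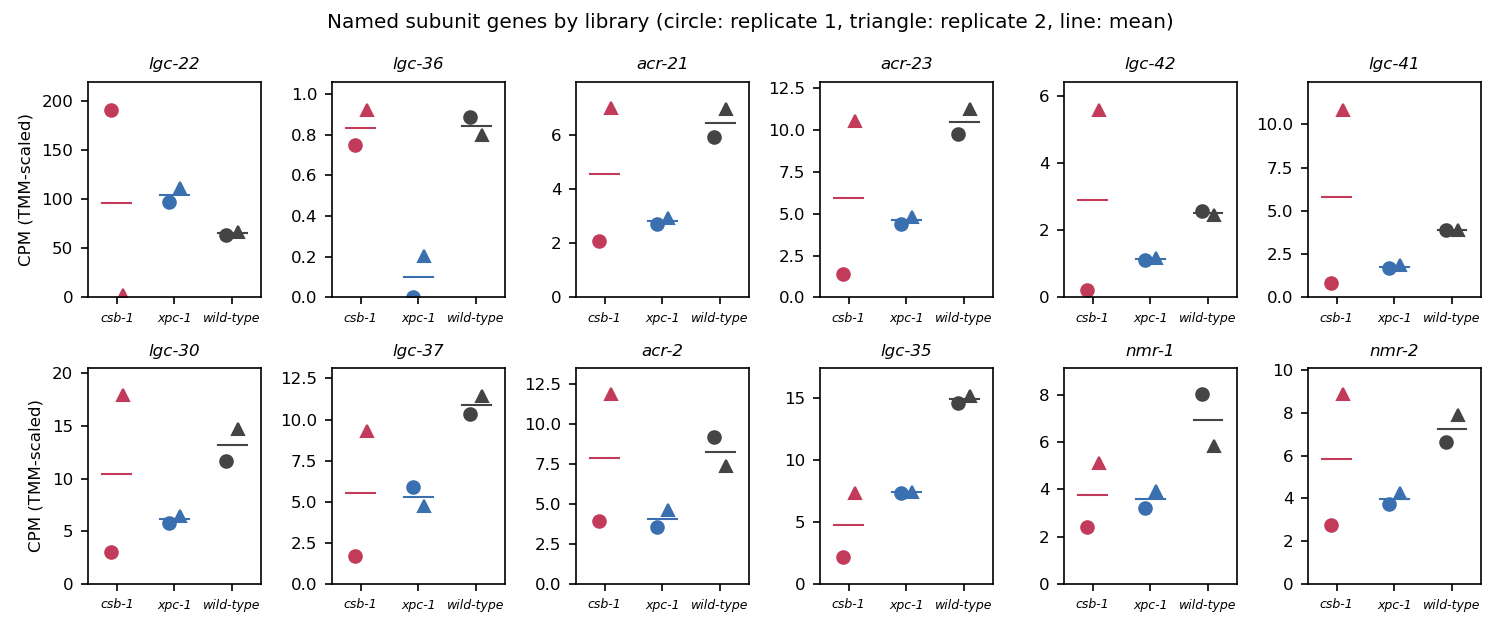
Level of 12 named genes in each library (TMM-scaled CPM, axes from 0; circles, replicate 1; triangles, replicate 2; lines, mean of 2 libraries) for *csb-1*, *xpc-1* and wild-type. The *xpc-1* libraries lie close together and below wild-type in every panel but *lgc-22*, whereas the *csb-1* libraries lie far apart in most panels.

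Genes that work with these subunits were also read in the *xpc-1* comparison, beside 17.1% of all genes tested called lower and 20% higher. Of 8 nicotinic subunits under other names, 3 fell (*deg-3*, *des-2* and *lev-1*), 1 rose (*lev-8*) and 4 did not pass. *deg-3* had 5.07 and 5.01 CPM in *xpc-1*, against 12.1 and 10.9 CPM in wild-type (log2 fold change -1.17). Of 16 anion and amine channel subunits under other names, 10 fell and none rose, among them the GABA receptor gene *unc-49* (log2 fold change -0.61) and the serotonin-gated channel gene *mod-1* (-0.87). Of 14 assembly, auxiliary and clustering proteins, 4 fell and 1 rose, *unc-50* (log2 fold change 0.51), which acts in nicotinic receptor assembly. Of 20 genes for transmitter synthesis, transport and breakdown, 10 fell and 1 rose. Those that fell included the vesicular transporters of acetylcholine, *unc-17* (log2 fold change -0.88), and of glutamate, *eat-4* (-0.79), and the one that rose was *tdc-1* (0.40), needed for tyramine.

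Markers of cell types were read in the same comparison, in which 17.1% of all genes tested were called lower and 20% higher. Of 15 pan-neuronal genes, 11 fell and 1 rose, with a median log2 fold change of -0.47, and their summed level was 1507 and 1565 CPM in *xpc-1*, against 2297 and 2338 CPM in wild-type. Of 6 body wall muscle genes 5 fell and none rose, and of 4 pharynx muscle genes 3 fell and none rose. All 5 germline genes rose, and their sum was 106.3 and 107.5 CPM in *xpc-1*, against 61.7 and 56.6 CPM in wild-type. Of 6 intestinal genes 3 fell and none rose, of 4 epidermal genes 2 rose and 1 fell, and of 4 glial genes 1 rose and 2 fell. None of 6 yolk genes, which mark adults, passed, and their sum was 7.03 and 8.43 CPM in *xpc-1* and 7.48 and 7.71 CPM in wild-type. The part of cell composition in the lower subunit levels was not tested.

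The comparison of *csb-1* with wild-type addresses larvae that lack the transcription-coupled damage sensor, and it shares its wild-type libraries with the comparison above. No subunit gene was called. Of 82 subunit genes tested with edgeR, 0 passed in either direction and 0 had an unadjusted p under 0.05. Over the 17730 genes tested, 0 were called higher (0%) and 0 lower (0%), with 507 at an unadjusted p under 0.05, and DESeq2 called 69 genes, none of them a subunit gene. The biological coefficient of variation was 0.726 in this fit, against 0.145 in the *xpc-1* fit. The median log2 fold change was -0.26 over the subunit genes and 0.15 over all genes. Scaling by library size alone gave -0.55 over the subunit genes and -0.09 over all genes.

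Both *csb-1* libraries were below both wild-type libraries for 21 of the 82 genes (25.6%) and above them for 2 (2.44%), against 19.4% below and 13.6% above over all genes tested. Scaled by library size only, 43 of the 82 were below and 1 was above, against 4877 below and 794 above of the 17730 genes tested. The lowest among those with at least 1 CPM were *lgc-21*, *lgc-35*, *lgc-12* and *acr-14*, and none of the following values passed the test. *lgc-35* had 2.20 and 7.35 CPM in *csb-1* and 14.6 and 15.2 CPM in wild-type (log2 fold change -1.64, SE 0.76). *lgc-12* had 1.58 and 2.01 CPM in *csb-1* and 5.32 and 3.70 CPM in wild-type (log2 fold change -1.33, SE 0.63). *acr-14* had 1.58 and 0.947 CPM in *csb-1* and 2.76 and 3.51 CPM in wild-type (log2 fold change -1.30, SE 0.68). The genes above wild-type were *lgc-32*, with 0.747 and 3.47 CPM in *csb-1* and 0.308 and 0.420 CPM in wild-type, and *lgc-54*, with 2.37 and 2.38 CPM in *csb-1* and 1.77 and 1.72 CPM in wild-type.

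The *csb-1* libraries differed from wild-type in different ways. Replicate 1 was below both wild-type libraries for 66 of the 82 genes (80.5%, against 47.7% over all genes) and above them for 10 (12.2%, against 42.8%). Replicate 2 was above both for 41 (50%, against 42.2% over all genes) and below both for 34 (41.5%, against 48.6%). The direction for replicate 2 depended on the scaling: by library size only it was above for 18 and below for 57, beside 3819 above and 12365 below of all 17730 genes, and in TPM above for 12 and below for 65, beside 2511 above and 13923 below of all genes. On both of these scales the share of subunit genes was close to that of all genes. With only replicate 1 kept, 38 subunit genes were called lower and 5 higher, and with only replicate 2 kept, 17 were called lower and 21 higher, in fits that assume the lone library to vary as the wild-type libraries do. Over all genes, 4937 of 17421 were called lower and 4797 higher with replicate 1 kept, and 5117 of 17279 lower and 4198 higher with replicate 2 kept. The *csb-1* libraries were over 2-fold apart for 49 of the 82 genes (59.8%, against 47.4% over all genes), and for 0 of them were the *xpc-1* or the wild-type libraries.

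How many subunit genes were higher in *csb-1* replicate 2 than in replicate 1 depended on the scaling: 60 of 82 in TMM-scaled CPM (73.2%, against 48.2% over all genes), 49 of 82 by library size only (59.8%, against 35.6%) and 41 of 82 in TPM (50%, against 26.9%). No test of these shares was run. *lgc-42* had 0.213 and 5.57 CPM in replicates 1 and 2, *lgc-41* had 0.811 and 10.8 CPM, and *acr-23* had 1.41 and 10.5 CPM. In CPM, 12 of 15 pan-neuronal markers were higher in replicate 2, with sums of 1218 and 2838 CPM in replicates 1 and 2. Much of this came from *egl-3*, with 103 and 717 CPM, and *egl-21*, with 64.1 and 677 CPM. Their ratios of replicate 2 over replicate 1 were 6.95 and 10.6, and the next largest was 2.31, for *rgef-1*. Replicate 1 was higher for *snb-1* (244.7 and 226.3 CPM), *ric-19* (20.4 and 12.2) and *unc-119* (53.96 and 27.8). In TPM the pan-neuronal sum turned, with 1262 and 1142 TPM. Body wall muscle markers summed to 4450 and 8964 CPM, which also turned in TPM (1231 and 1104). Pharynx muscle markers summed to 606 and 4728 CPM (263.7 and 777 TPM) and intestinal markers to 689.3 and 4746 CPM (673.9 and 2227 TPM). In CPM, replicate 2 was higher for 4 of 6 body wall muscle, 3 of 4 pharynx muscle and 5 of 6 intestinal markers. The order was opposite for *hlh-1* (34.9 and 20.2 CPM), *myo-3* (1062 and 738), *ceh-22* (25.9 and 11.1) and *elt-7* (14.4 and 11.2). The intestinal marker *elt-2* had 28.6 and 28.7 CPM. Their part in the subunit levels was not tested.

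*lgc-20* to *lgc-28*, a group separated after the values were seen, had the opposite order in CPM, with replicate 1 above replicate 2 for all 9. Of the other 78 subunit genes, 15 also had replicate 1 above replicate 2, and 63 had replicate 2 above replicate 1. Over all genes tested, 48.2% had replicate 2 above replicate 1, so the order of the 9 was a common one. Of the 9, the 3 with the highest levels were covered deeply in one library and barely in the other. *lgc-22* had 8920 reads in replicate 1 and 70 in replicate 2, or 190.3 and 2.01 CPM, a ratio of 94.7. *lgc-27* had 5469 and 120 reads, or 116.7 and 3.44 CPM, a ratio of 33.9. *lgc-21* had 2050 and 8 reads, or 43.7 and 0.230 CPM, a ratio of 191. For *lgc-22* and *lgc-27* the *csb-1* libraries thus lay on either side of wild-type, and for *lgc-21* both lay below. *lgc-34*, of like level in wild-type, had 65.9 and 54.4 CPM. The share of summed *lgc* CPM held by *lgc-21*, *lgc-22* and *lgc-27* was 51.9% and 1.03% in *csb-1*, 43.0% and 44.9% in *xpc-1*, and 34.8% and 35.5% in wild-type. All 4 epidermal markers were also higher in *csb-1* replicate 1. *dpy-7*, a collagen gene, had 315.6 and 0.0574 CPM in replicates 1 and 2, and *che-14* had 37.3 and 2.07 CPM. The differences were smaller for *lin-26*, with 161.7 and 66.5 CPM, and *elt-3*, with 59.9 and 44.8 CPM. All 5 germline markers were higher in replicate 1 as well, with sums of 176.3 and 81 CPM. Of the 4 glial markers, *ptr-10* had this order, with 49.5 and 0.746 CPM, and the other 3 had the opposite one: *vap-1* with 0.384 and 95.1 CPM, *fig-1* with 10.2 and 75.4 CPM and *kcc-3* with 19.3 and 24.7 CPM. Of these epidermal and glial markers, *dpy-7*, *che-14* and *ptr-10* rose in *xpc-1* larvae, *elt-3*, *fig-1* and *kcc-3* fell, and *lin-26* and *vap-1* did not pass. The part of these cells in the subunit levels was not tested.

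**Figure D5:**
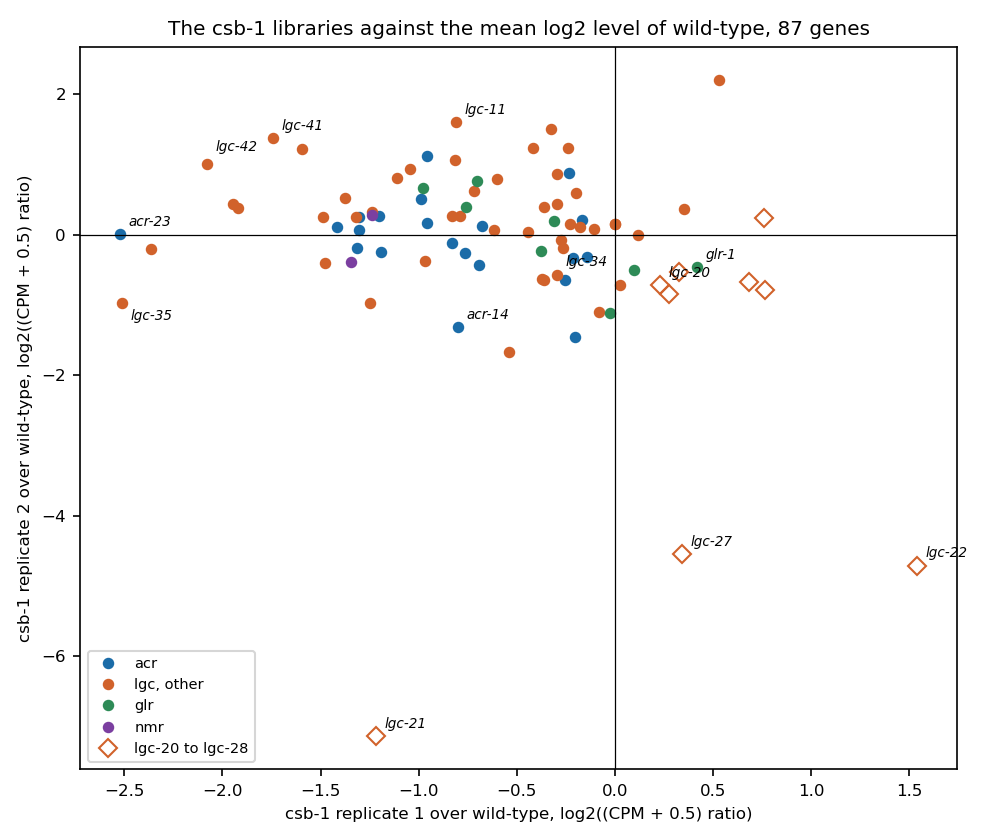
Each of the 87 genes in *csb-1* replicate 1 (x axis) and replicate 2 (y axis) against the mean log2 level of wild-type, as log2 ratios of CPM plus 0.5 (circles coloured by class; open diamonds, *lgc-20* to *lgc-28*; lines at 0). Most genes lie left of 0 on the x axis and within a few units of 0 on the y axis, and the diamonds of *lgc-21*, *lgc-22* and *lgc-27* lie far below the rest.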

How the data were processed

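Poly(A)-enriched, strand-marking libraries were aligned by the authors with STAR (version not given in the sources used here). The deposited counts are raw counts of reads over exons per gene, made by the authors with featureCounts 2.0.4. Per the file headers the annotation was Ensembl WBcel235, no strand option was set, and each mate of a pair was counted, so counts exceed fragments. The deposited files also give the exon length of each gene, an other unit besides counts, which served for TPM. No normalization had been applied, and no test is stated in the methods.

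Members were found by symbol through a gene name table, which matched 44017 of 46904 IDs. Counts were tested with edgeR 4.0.16 (TMM factors, quasi-likelihood test, R 4.3.3) for each mutant against wild-type on 4 libraries, over genes that reached 10 counts in 2 or more of them, with Benjamini-Hochberg adjustment over all genes tested and a threshold of 0.05. DESeq2 1.42.0 was an alternative. Tables were made with pandas 2.3.3 and figures with matplotlib 3.10.9. The procedure was tested on simulated data. Library totals of 41643033 to 48371365 reads set the precision, and intervals from counts cover counting error only.

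Named genes were, for levels, all *glr* and *nmr* genes and the 10 *acr* and 10 *lgc* genes with the highest mean TPM in wild-type, for each comparison the 8 highest and 8 lowest called genes whose libraries did not overlap (with no call, the 4 highest and 4 lowest of at least 1 CPM), and any gene of the role lists. Of the symbols listed, 5 had no match in the files. The members, the lists and the designs were chosen with earlier results of these data known. Alternatives were other scalings and filters, DESeq2, a block for the replicate number, 1 fit of all 6 libraries, and leaving out each library. No sequences were used.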

Additional observations from a re-analysis of the deposited data

How the results depend on the processing

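For *xpc-1* against wild-type, the 28 lower and 1 higher subunit genes became 0 lower and 0 higher with all 6 libraries in 1 fit. The higher count was 2 with library size only, with at least 10 counts in every library, and with the replicate block, and leaving out 1 library gave 16 to 21 lower genes. Replicate numbers were not used as pairs in the main fits. The correlation of replicate differences was 0.260 between wild-type and *xpc-1* and -0.0036 between wild-type and *csb-1*. The biological coefficient of variation of the *xpc-1* fit was 0.145 without a block for the replicate number and 0.0878 with it. Whether libraries of the same number shared a batch was not tested. With the replicate number as a block, 37 subunit genes were lower in *xpc-1*, beside 4161 of all 17924 genes (3062 without the block), and in *csb-1* 0 were called, with a median log2 fold change of -0.40. For *csb-1*, leaving out 1 library gave 0 to 21 higher and 0 to 38 lower genes, with medians of -0.81 to 0.12. None of the 29 genes called in *xpc-1* changed sign in the 11 other fits, in which 3 values could not be fitted. Among genes not called, *acr-9* was -0.0237 with upper-quartile factors, *lgc-20* was -0.0167 with 6 libraries, -0.0804 with upper-quartile factors and -0.0068 with at least 10 counts in every library, and *lgc-33* was -0.0076 with 6 libraries, -0.0731 with upper-quartile factors and -0.0065 with the replicate block. With 1 library left out, the ranges were -0.52 to 0.58 for *acr-10*, -0.27 to 0.16 for *acr-3*, -1.05 to 0.14 for *acr-6*, -0.74 to 0.00041 for *acr-7*, -0.0459 to 0.12 for *acr-9*, -0.25 to 0.11 for *glr-1*, -0.0814 to 0.49 for *glr-7*, -0.29 to 0.21 for *glr-8*, -0.18 to 0.15 for *lgc-20* and -0.26 to 0.24 for *lgc-33*. The cause was not tested. With 2 libraries a strain and genes of few reads, such as *lgc-36*, small differences were not detectable at this depth. Of the summed levels, the log2 ratio of *xpc-1* over wild-type was -0.37 for *acr*, -0.0709 for *lgc* and -0.22 for *glr* in TPM, against -0.48, -0.20 and -0.33 in CPM, and that of *csb-1* over wild-type for *glr* was -0.35 in TPM, against -0.0354 in CPM.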
